A study of Homo sapiens with 6 samples.

Results

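The genes described here encode 41 enzymes and partner proteins that cut, splice, export and chemically modify transfer RNA (tRNA). They were chosen by name, from their known roles, at a time when earlier results of these data were known. Of these genes, 41 of 41 were among the 17088 genes of the expression table. Expression was measured by RNA sequencing of poly(A)-selected mRNA in MDA-MB-231, a line of human breast cancer cells of the triple-negative kind. The control group carried the vector labelled VecNC and the other group, called RPPH1 cells here, carried VecRPPH1 and overexpressed the noncoding RNA RPPH1. Each group had 3 libraries, and the comparison asked which transcripts differed when RPPH1 was overexpressed. Whether the 3 replicates of a group are separate cultures is not stated, so the p-values rest on the spread between libraries, which may be technical. RPPH1 itself was not analysed here. In bulk RNA, fewer cells of a kind and less RNA per cell cannot be told apart.

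A tRNA is made as a longer precursor. Its 5' leader is removed by RNase P and its 3' trailer by RNase Z, a CCA tail is added, some precursors lose an intron, and many kinds of modified nucleotide are put in before the tRNA serves translation. RPPH1 is the RNA subunit of nuclear RNase P, whereas mitochondrial RNase P is made of protein alone. The 41 genes were grouped by role into 7 of end processing, 7 of splicing, ligation and export, and 27 of base modification.

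Levels are given in FPKM, fragment numbers scaled by gene length and by library depth, which can be compared between genes. The 6 libraries held 17603126 to 18817269 fragments, and the median tested gene had 802 to 868 fragments per library. Control replicate 1 stood apart from the other libraries, at 10.93 on the first principal component against -4.40 to 0.107. The line's mesenchymal marker VIM was at 2590 to 2740 FPKM, while CDH1 and ESR1 were at most at 0.144 and 0.0173 FPKM. A further epithelial marker, EPCAM, was at 7.21, 6.57 and 6.80 FPKM in controls, against 7.29, 6.66 and 6.17 FPKM in RPPH1 cells. Among markers of other cell types, PTPRC, CD3E, VWF, ALB and PECAM1 were at or below 0.967 FPKM, and CD14 was at 2.12, 2.19 and 2.57 FPKM in controls, against 3.08, 3.14 and 3.46 FPKM in RPPH1 cells. Their part in the results below was not tested.

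No gene of tRNA processing or modification passed the test of RPPH1 against control cells. limma was run on log2(FPKM + 1) of genes that reached 1 FPKM in 3 or more libraries, with Benjamini-Hochberg adjustment over 10909 genes and a threshold of 0.05. Of the 41 genes, 40 entered the test and ELAC1 fell under the filter, and every one of the 40 was above 1 FPKM in all 6 libraries. Of these 40, 0 were called higher and 0 lower, where the background was 0% of all tested genes called higher and 0.00917% called lower, that is 1 gene. The smallest limma adjusted p among the 40 was 0.573. At an unadjusted p under 0.05, 0 of the 40 were higher and 2 lower (TSEN54 and CTU1), where 4.29% of all tested genes were higher and 3.68% lower. limma-voom on the fragment numbers recovered from the FPKM values called 0 of the 40 and 0.156% of all tested genes (smallest adjusted p of a member 0.559), and 3 of the 40 had an unadjusted p under 0.05 by that tool, against 8.7% of all tested genes.

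The differences were small in each role class. The mean was higher with RPPH1 in 16 of the 40 genes and lower in 24, with a median log2 difference of -0.0284, beside 0.0046 over all tested genes, where 52.3% had higher means. The median absolute difference was 0.0445 for the 40 genes and 0.048 for all tested genes. End processing genes had a median of -0.0359 with 2 of 6 higher, and base modification genes a median of -0.0438 with 10 of 27 higher. Splicing, ligation and export genes had a median of 0.0249 with 4 of 7 higher. The median of this class was -0.0024 without control replicate 2, -0.0007 without control replicate 3 and -0.0083 without RPPH1 replicate 3. These medians have no test. The median of a class in a single library varied with an SD of 0.0413 to 0.0622 log2. Without control replicate 1, the median over the 40 genes was 0.0237, 25 of 40 had higher means, and the median of the base modification genes was 0.0245.

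**Figure D1:**
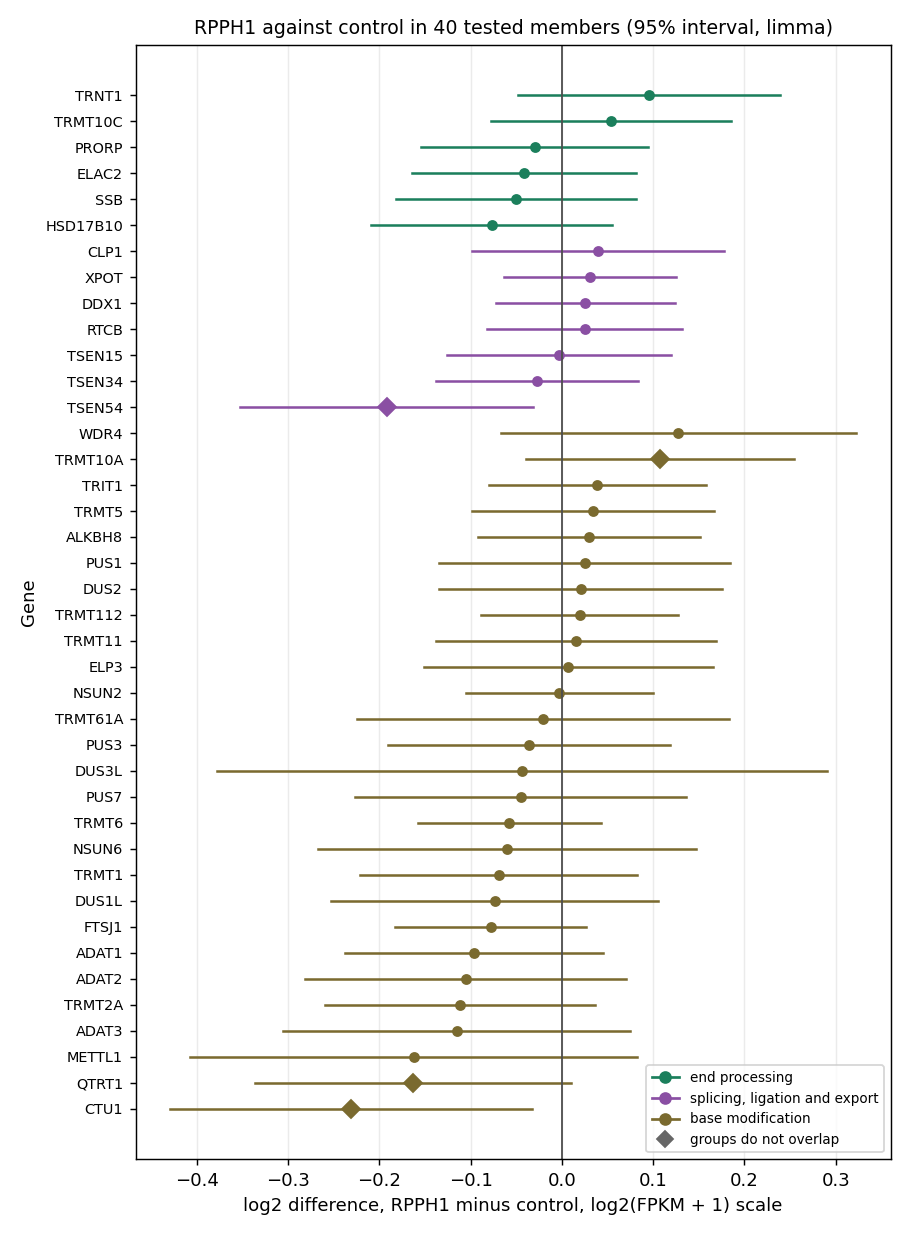
The log2 difference between RPPH1 and control cells, on the log2(FPKM + 1) scale, is plotted for 40 genes in 3 role classes, each with its 95% interval from limma. The intervals of CTU1 and TSEN54 lie below 0 before adjustment, and diamonds mark the 4 genes whose groups did not overlap.

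The precision of these comparisons differed between genes. The median half-width of the 95% interval was 0.145 log2 units, from 0.094 for XPOT to 0.334 for DUS3L. No interval went below -0.43, the lower bound for CTU1, or above 0.32, the upper bound for WDR4, where adding 1 FPKM before the logarithm shrinks the differences of low genes.

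The genes spanned a wide range of levels. TRMT112, the activating partner of several methyltransferases, was the highest, with 100.5, 92.35 and 100.3 FPKM in control replicates 1, 2 and 3 and 103, 99.95 and 94.0 FPKM in RPPH1 replicates 1, 2 and 3, the order used throughout. DDX1, a helicase of the tRNA ligase complex, followed at 78.6, 72.4 and 75.0 FPKM in controls, against 78.9, 73.6 and 77.5 FPKM in RPPH1 cells. SSB, the La protein that shields the 3' ends of new RNA polymerase III transcripts, came next with 66.9, 65.9 and 62.4 FPKM in controls, against 68.7, 58.2 and 61.9 FPKM in RPPH1 cells. In all 3 genes the groups overlapped. At the low end stood ELAC1, TRMT10A, WDR4 and ADAT2, with means over the 6 libraries of 0.858, 2.08, 2.28 and 2.40 FPKM. The median gene was at 34.7 FPKM among the tested end processing genes, 25.3 FPKM among those of splicing, ligation and export, 8.42 FPKM among those of base modification and 11.3 FPKM among all tested genes. Many neighbours in the order of levels overlapped in range, for example NSUN2 with a mean of 52.0 FPKM and HSD17B10 with 51.2 FPKM. TRMT112 has 7 pseudogenes named after it in GENCODE 29, so its level is uncertain if reads were shared with them, and TSEN15 has 3, QTRT1 1 and XPOT 1. Of the exon bases of TRMT112, 17.5% are shared with ESRRA on the opposite strand, which matters if counting ignored strand.

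**Figure D2:**
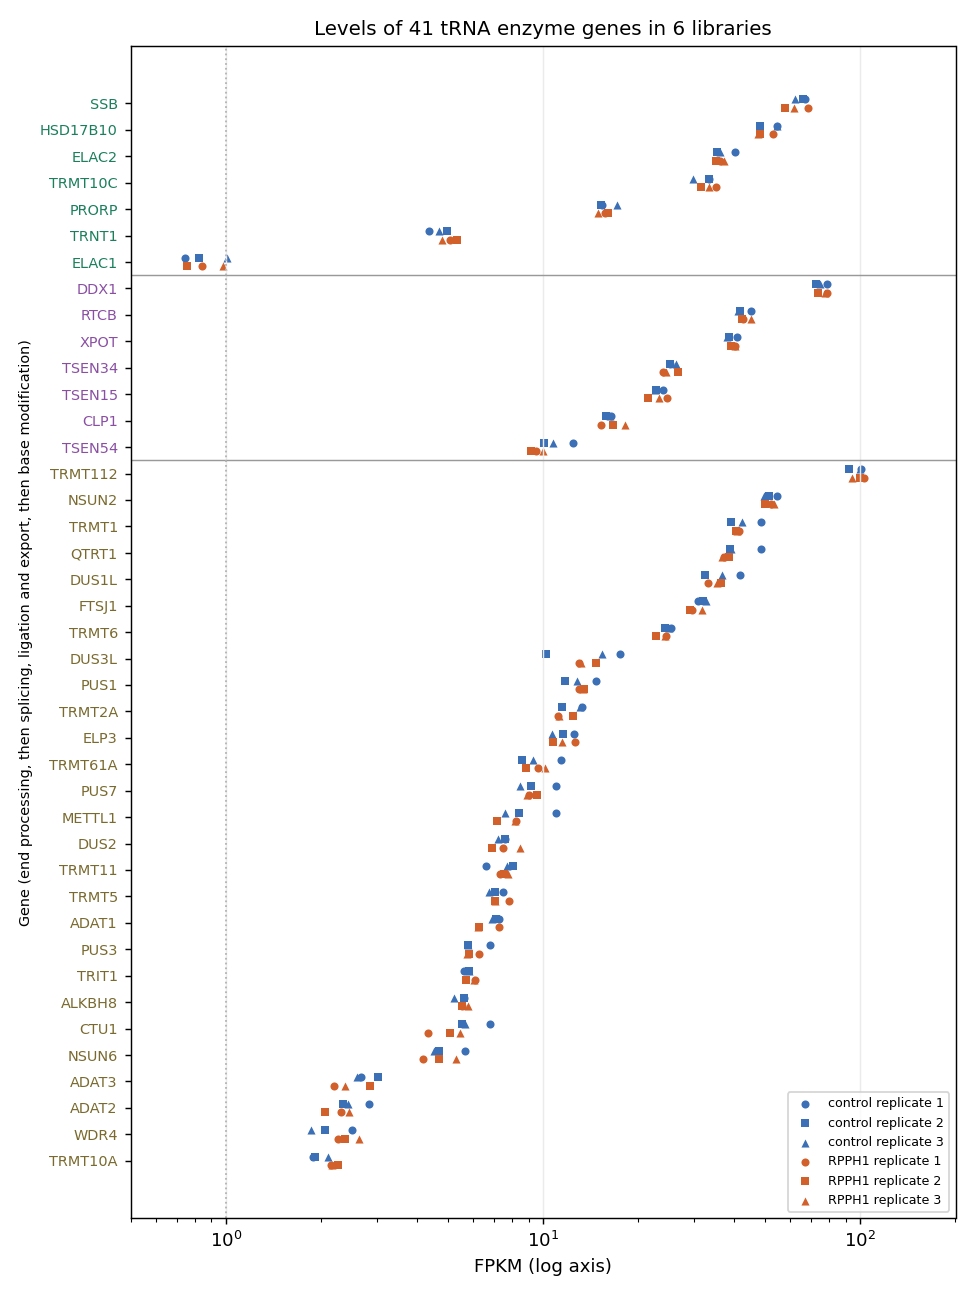
FPKM on a log axis in each of the 6 libraries is shown for the 41 genes, ordered by role class and then by mean level. Points of both groups lie together in nearly every gene, and ELAC1 lies around the dotted line at 1 FPKM.

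End processing begins in mitochondria with the 3 subunits of protein-only RNase P. TRMT10C, its tRNA methyltransferase subunit, was at 33.3, 33.3 and 29.65 FPKM in controls, against 35.2, 31.4 and 33.5 FPKM in RPPH1 cells. HSD17B10, a dehydrogenase that serves as its partner, was at 54.6, 48.5 and 54.6 FPKM in controls, against 53.3, 48.3 and 47.8 FPKM in RPPH1 cells. PRORP, the nuclease subunit, was at 15.4, 15.3 and 17.15 FPKM in controls, against 15.7, 16.1 and 14.9 FPKM in RPPH1 cells. The groups overlapped in each, with log2 differences of 0.05, -0.08 and -0.03 and limma adjusted p-values of 0.853, 0.774 and 0.924. The nuclease was thus the least abundant of the 3 mRNAs per length in every library. In GENCODE 29, 40.9% of the exon bases of PRORP are shared with a protein-coding gene on the same strand, so its level depends on how such reads were assigned.

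The pair of RNase Z genes, which encode the nucleases that cut off the 3' trailer, differed widely in level. ELAC2, the long form that works in the nucleus and in mitochondria, was at 40.5, 35.3 and 36.1 FPKM in controls, against 36.1, 35.1 and 37.3 FPKM in RPPH1 cells. ELAC1, the short form, was at 0.745, 0.820 and 1.01 FPKM in controls, against 0.842, 0.756 and 0.976 FPKM in RPPH1 cells. Control replicate 1 was the highest of the 6 libraries for ELAC2, and the groups overlapped in both genes. ELAC1 rested on 30 to 41 fragments per library, and its spread between controls, a coefficient of variation of 16.0%, was no larger than the 16.9% that counting alone gives. ELAC2 had a log2 difference of -0.04 and a limma adjusted p of 0.883.

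The remaining end processing genes also overlapped between groups. TRNT1, which adds the CCA tail, was at 4.37, 4.99 and 4.715 FPKM in controls, against 5.10, 5.34 and 4.79 FPKM in RPPH1 cells. Its log2 difference of 0.10 had an SE of 0.0639 and a limma adjusted p of 0.735, and it was 0.05 without control replicate 1. For SSB the log2 difference was -0.05, with a limma adjusted p of 0.860.

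Splicing of intron-containing tRNAs uses an endonuclease of several subunits, of which 3 were among the 41 genes. TSEN54, a structural subunit, was at 12.5, 10.1 and 10.7 FPKM in controls, against 9.52, 9.17 and 9.97 FPKM in RPPH1 cells. All 3 controls lay above all 3 RPPH1 libraries, by a gap between 10.1 and 9.97 FPKM, and control replicate 1 was the highest. The log2 difference was -0.19 with an SE of 0.0719, an unadjusted limma p of 0.0241 and an adjusted p of 0.573, and it was -0.11 without control replicate 1, a value moved by more than 1.5 times. TSEN15, a second structural subunit, was at 23.95, 22.7 and 22.6 FPKM in controls, against 24.6, 21.4 and 23.2 FPKM in RPPH1 cells. TSEN34, a catalytic subunit, was at 25.2, 25.1 and 26.2 FPKM in controls, against 23.9, 26.65 and 24.5 FPKM in RPPH1 cells. These overlapped between groups, at log2 differences of -0.0034 and -0.03 and limma adjusted p-values of 0.991 and 0.921.

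The ligation and export genes were similar in both groups. RTCB, the ligase that joins the exons, was at 45.3, 41.8 and 41.2 FPKM in controls, against 42.8, 42.5 and 45.2 FPKM in RPPH1 cells. Its log2 difference was 0.02, that of its helicase partner DDX1 was 0.03, and the limma adjusted p-values were 0.926 and 0.916. CLP1, an RNA kinase bound to the endonuclease, had 16.15 ± 0.3585 FPKM in controls, against 16.7 ± 1.49 FPKM in RPPH1 cells (n = 3 libraries in each group; every value with ± is a mean and its SD). XPOT, the nuclear export receptor of tRNA, had 39.1 ± 1.49 FPKM and 39.96 ± 0.782 FPKM. XPOT had 4639 to 5114 fragments per library, the most of the genes named so far, and the 95% interval of its log2 difference ran from -0.06 to 0.12.

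Base modification is the largest class, with 27 of the 40 tested genes. It held 3 of the 4 genes whose groups did not overlap, or 11.1% of the class, and the other was TSEN54. Over the 40 tested genes, the RPPH1 libraries lay above all controls in 1 and below them in 3, against 7.98% and 5.88% of all tested genes. Together these were 4 of 40 members, beside 13.9% of all tested genes. The 3 in this class were QTRT1, CTU1 and TRMT10A.

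QTRT1 is the catalytic subunit of the enzyme that inserts queuine at the wobble base of certain tRNAs. It was at 48.9, 38.9 and 39.3 FPKM in controls, against 37.3, 38.6 and 36.7 FPKM in RPPH1 cells. Control replicate 1 stood far above the other 5 libraries, and the gap between the groups was that between 38.9 and 38.6 FPKM. The log2 difference was -0.16 with an SE of 0.0773 and a limma adjusted p of 0.651, and it was -0.06 without control replicate 1.

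CTU1 acts in the thiolation of wobble uridines. It was at 6.80, 5.555 and 5.67 FPKM in controls, against 4.35, 5.08 and 5.48 FPKM in RPPH1 cells, with control replicate 1 the highest and RPPH1 replicate 1 the lowest. The log2 difference was -0.23, the most negative of the 40 genes, with an SE of 0.0885, an unadjusted limma p of 0.0266 and an adjusted p of 0.573. It was -0.15 without control replicate 1 and -0.15 without RPPH1 replicate 1. CTU1 rested on 169 to 272 fragments per library.

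TRMT10A is the nuclear and cytosolic relative of TRMT10C and methylates guanosine in tRNA. It was at 1.88, 1.91 and 2.10 FPKM in controls, against 2.15, 2.26 and 2.16 FPKM in RPPH1 cells, so every RPPH1 library lay above every control. The log2 difference was 0.11 with an SE of 0.0657 and a limma adjusted p of 0.704, and 135 to 158 fragments per library stood behind it. Its level was the lowest of the 40 tested members, while TRMT10C had a mean of 32.7 FPKM.

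The promoter windows of these 3 genes are shown because they are the members of the class with groups that did not overlap; TSEN54 is named only. Each window is from RefSeq on GRCh38.p14, runs from 250 bases before to 50 bases after a transcription start on the gene's own strand, and has in capitals any match to the motifs named in the next paragraph. The windows lie at chr19:10701189-10701488 on the plus strand for QTRT1, chr19:51108360-51108659 on the minus strand for CTU1 and chr4:99563990-99564289 on the minus strand for TRMT10A. TRMT10A has a second window, chr4:99563674-99563973, which held none of the motifs; the window shown is the one that holds the GENCODE 29 start of the gene, at position 99564032.
QTRT1: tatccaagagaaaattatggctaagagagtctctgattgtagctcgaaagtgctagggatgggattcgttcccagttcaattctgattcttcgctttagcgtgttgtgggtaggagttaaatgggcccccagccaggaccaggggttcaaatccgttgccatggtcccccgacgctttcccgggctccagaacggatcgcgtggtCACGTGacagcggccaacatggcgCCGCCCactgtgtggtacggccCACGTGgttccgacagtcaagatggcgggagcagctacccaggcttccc
CTU1: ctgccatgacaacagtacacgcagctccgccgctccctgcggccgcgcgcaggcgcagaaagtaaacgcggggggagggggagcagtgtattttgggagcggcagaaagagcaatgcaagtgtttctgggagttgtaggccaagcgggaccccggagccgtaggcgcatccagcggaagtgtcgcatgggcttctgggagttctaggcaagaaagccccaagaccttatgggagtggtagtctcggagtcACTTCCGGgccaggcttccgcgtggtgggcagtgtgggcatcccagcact
TRMT10A: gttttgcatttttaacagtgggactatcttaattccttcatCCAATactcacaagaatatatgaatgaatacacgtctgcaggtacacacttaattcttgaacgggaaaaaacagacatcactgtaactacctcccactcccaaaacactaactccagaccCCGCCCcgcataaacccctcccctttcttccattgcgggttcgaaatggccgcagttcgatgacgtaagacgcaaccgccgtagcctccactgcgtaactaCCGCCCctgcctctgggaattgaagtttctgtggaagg

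The 3 windows held different motif letters. QTRT1 had the E-box letters CACGTG at 2 places and 1 GC box (GGGCGG, here on the other strand), CTU1 had the ETS letters CCGGAAGT on the other strand, and TRMT10A had 1 CCAAT box and 2 GC boxes in the window shown and no match in its second window. A window was found for 33 of the 41 genes, with a further window for some of them, and both strands were searched in all windows of a gene. The E-box letters were in 15.15% of these 33 genes, 12.9% of the 9078 tested genes with a window and 8.775% of all 27305 genes with a window. The ETS letters were in 21.2%, 10.9% and 4.95%, the CCAAT letters in 36.4%, 44.05% and 39.7%, and the GC box in 69.7%, 78.6% and 48.3%. The letters GCGCATGC, the core of the NRF1 motif, were in 9.09%, 6.775% and 3.68%. These are matches of letters and say nothing of binding.

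The methyltransferase pairs differed in how closely the partners' levels matched. TRMT6 and TRMT61A form the enzyme that methylates an adenosine of the T loop. TRMT6 was at 25.25, 24.2 and 24.96 FPKM in controls, against 24.4, 22.7 and 24.3 FPKM in RPPH1 cells. TRMT61A, the catalytic subunit, was at 11.4, 8.59 and 9.27 FPKM in controls, against 9.66, 8.865 and 10.15 FPKM in RPPH1 cells. TRMT61A was thus lower than its partner per length in every library. Control replicate 1 lay above the other controls in both, by more in TRMT61A.

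METTL1, which makes N7-methylguanosine, works with the WD-repeat protein WDR4. METTL1 was at 11.01, 8.37 and 7.60 FPKM in controls, against 8.235, 7.185 and 8.14 FPKM in RPPH1 cells. WDR4 was at 2.50, 2.06 and 1.86 FPKM in controls, against 2.25, 2.38 and 2.635 FPKM in RPPH1 cells. Both partners were highest among controls in replicate 1, and the groups overlapped in both. Their log2 differences had opposite signs, -0.16 for METTL1 with an SE of 0.109 and 0.13 for WDR4 with an SE of 0.0870, with limma adjusted p-values of 0.736 and 0.740. Both values moved by more than 1.5 times when 1 library was left out. METTL1 was at -0.022 without control replicate 1, -0.26 without control replicate 3 and -0.11 without RPPH1 replicate 2, and WDR4 was at 0.21 without control replicate 1, 0.06 without control replicate 3 and 0.08 without RPPH1 replicate 3. The 95% intervals, from -0.41 to 0.08 and from -0.07 to 0.32, overlap. The control spread of METTL1 was 19.9% of its mean, where counting alone gives 6.26%.

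ADAT2 and ADAT3 form the deaminase that makes inosine at the wobble position, with ADAT2 as the catalytic subunit. ADAT2 was at 2.82, 2.33 and 2.42 FPKM in controls, against 2.31, 2.05 and 2.45 FPKM in RPPH1 cells. ADAT3 was at 2.66, 3.02 and 2.59 FPKM in controls, against 2.19, 2.86 and 2.38 FPKM in RPPH1 cells. The partners were thus at similar low levels, and both groups overlapped in each gene. Their log2 differences were -0.11 and -0.12, with limma adjusted p-values of 0.765 and 0.763. Single libraries moved both by more than 1.5 times. ADAT2 was at -0.05 without control replicate 1 and -0.06 without RPPH1 replicate 2, and ADAT3 was at -0.07 without control replicate 2. Leaving out RPPH1 replicate 1 or RPPH1 replicate 2 put ADAT3 at -0.06 or -0.19. ADAT3 rested on 64 to 88 fragments, and 35.4% of its exon bases in GENCODE 29 are shared with SCAMP4 on the same strand, so its level is uncertain. ADAT1, which acts on an adenosine beside the anticodon, had 7.10 ± 0.206 FPKM in controls, against 6.59 ± 0.563 FPKM in RPPH1 cells.

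The other methyltransferases had groups that overlapped. NSUN2 and NSUN6 methylate cytosines, at 52.0 ± 2.42 and 4.98 ± 0.628 FPKM in controls, against 51.9 ± 1.73 and 4.73 ± 0.577 FPKM in RPPH1 cells. TRMT1, which dimethylates a guanosine, had 43.3 ± 4.84 FPKM in controls, against 41.1 ± 0.329 FPKM in RPPH1 cells. TRMT2A, which makes methyluridine in the T loop, had 12.6 ± 1.01 FPKM and 11.6 ± 0.719 FPKM. FTSJ1, which methylates riboses of the anticodon loop and so modifies the sugar and not the base, had 31.8 ± 0.903 FPKM and 30.1 ± 1.46 FPKM. TRMT5, which methylates the guanosine next to the anticodon, had 7.10 ± 0.354 FPKM and 7.295 ± 0.429 FPKM. TRMT11, which methylates guanosine together with TRMT112, had 7.45 ± 0.742 FPKM and 7.52 ± 0.221 FPKM. The limma adjusted p-values of these 7 genes ran from 0.701 for TRMT2A to 0.991 for NSUN2. For TRMT1 the SD among controls exceeded that among RPPH1 libraries, with control replicate 1 at 48.6 FPKM and the other controls at 39.05 and 42.3 FPKM.

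The dihydrouridine synthase genes held the widest spread of the 40. DUS3L was at 17.5, 10.2 and 15.3 FPKM in controls, against 13.0, 14.65 and 13.2 FPKM in RPPH1 cells, so the controls held both the highest and the lowest library. Its control spread was 26.1% of the mean where counting alone gives 4.29%, and its log2 difference of -0.04 had a 95% interval from -0.38 to 0.29. DUS1L had 37.0 ± 4.72 FPKM in controls, against 34.96 ± 1.76 FPKM in RPPH1 cells, and DUS2 had 7.47 ± 0.2295 FPKM and 7.62 ± 0.798 FPKM. The pseudouridine synthase genes PUS1, PUS3 and PUS7 had 13.1 ± 1.51, 6.15 ± 0.591 and 9.55 ± 1.295 FPKM in controls, against 13.3 ± 0.285, 5.96 ± 0.285 and 9.18 ± 0.375 FPKM in RPPH1 cells. The limma adjusted p-values of these 6 genes were 0.853 to 0.959.

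The groups overlapped in the remaining genes, ELP3, ALKBH8 and TRIT1. ELP3, the catalytic subunit of Elongator, had 11.6 ± 0.923 FPKM in controls, against 11.6 ± 0.947 FPKM in RPPH1 cells. ALKBH8, which methylates and hydroxylates side chains of the wobble uridine, had 5.50 ± 0.220 FPKM and 5.64 ± 0.146 FPKM. TRIT1, which adds an isopentenyl group beside the anticodon, had 5.77 ± 0.128 FPKM and 5.96 ± 0.214 FPKM. The limma adjusted p-values were 0.983, 0.92 and 0.889.

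The clearest pattern among the 40 genes lay between the control libraries. Control replicate 1 held the highest of the 6 values in 21 of 40 genes, or 52.5%, where it did so in 24.2% of all tested genes. It lay above both other controls in 31 of 40 genes (77.5%, against 39.6% of all tested genes). The median of its log2 distance from the mean of the other controls was 0.0964 for the 40 genes and 0.0097 for all tested genes. The base modification genes showed this most, at a median of 0.156 with 22 of 27 above both other controls, followed by splicing, ligation and export genes at 0.0896 with 6 of 7 and end processing genes at 0.0708 with 3 of 6. In no other library did more than 8 of the 40 genes reach their highest value. These shares are a description of the libraries, with no test.

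**Figure D3:**
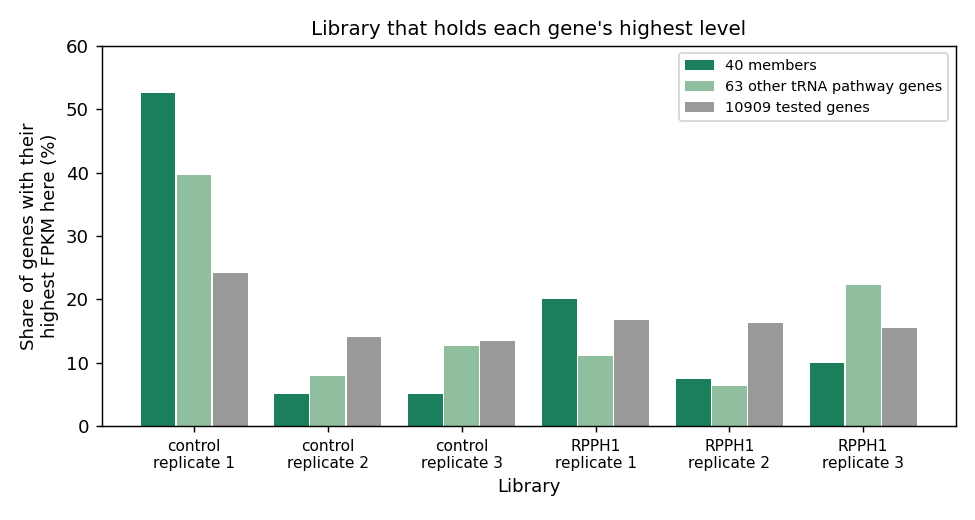
For each library, bars give the share of genes, in percent, whose highest FPKM of the 6 libraries was found there, for 40 members, 63 other tRNA pathway genes and 10909 tested genes. Control replicate 1 holds 52.5% of the members, 39.7% of the other pathway genes and 24.2% of all tested genes.

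The genes that stood furthest above in control replicate 1 were DUS3L, METTL1, TRMT61A, QTRT1, PUS7 and DUS1L, at log2 distances of 0.45, 0.42, 0.33, 0.31, 0.29 and 0.27 from the mean of the other controls. TRMT11 at -0.22 and TRNT1 at -0.12 lay furthest below. Across the 40 genes this distance correlated with the GC content of the longest GENCODE 29 transcript, which ran from 35.1% for TRMT10A to 71.8% for ADAT3 (Pearson r = 0.43, n = 40 genes that share the same libraries, a description without a test). Over the 10898 tested genes with a GC value the same correlation was 0.035. Among the members the distance of control replicate 2 from the other controls had a correlation of -0.487 with GC content, and that of RPPH1 replicate 1 from the other RPPH1 libraries -0.43. Over all tested genes these were -0.23 and -0.245. RPPH1 replicate 2 had the opposite sign, at 0.366 among the members and 0.32 over all tested genes. The distances of a gene within a group offset one another by definition, so the correlations within a group are linked. Control replicate 3 and RPPH1 replicate 3 were at 0.023 and 0.097 among the members, and at 0.215 and -0.109 over all tested genes. GC content thus moved with the distances of some libraries in each group. Its part in the differences between groups was not tested.

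**Figure D4:**
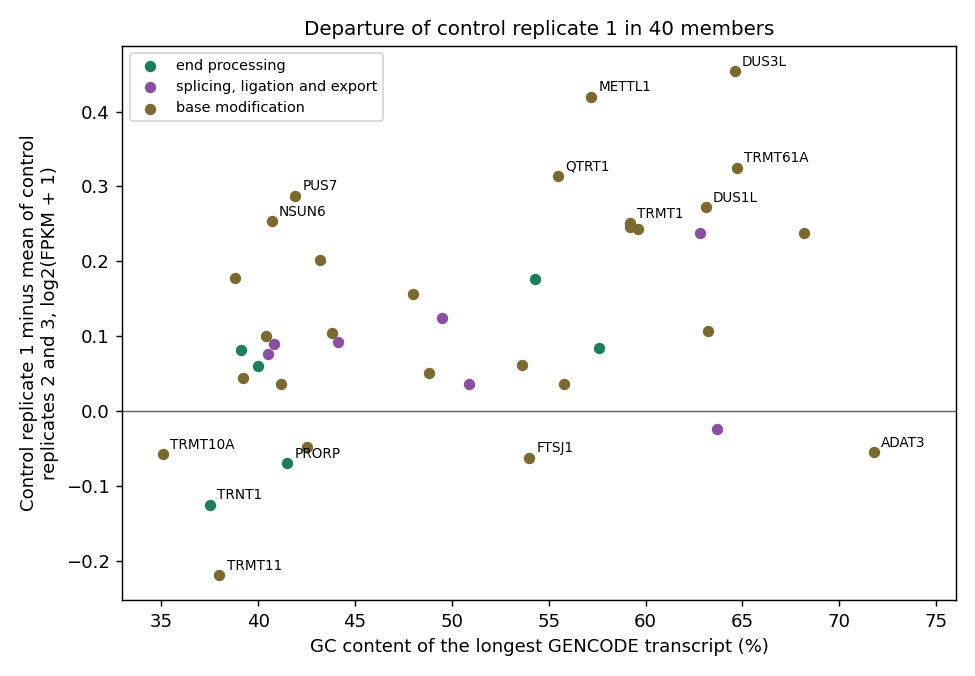
For 40 members, the log2(FPKM + 1) distance of control replicate 1 from the mean of control replicates 2 and 3 is plotted against the GC content of the longest transcript in percent, with colours for the 3 role classes. DUS3L and METTL1 lie highest at 0.45 and 0.42, TRMT11 lies lowest at -0.22, and ADAT3 lies near 0 at the highest GC content.

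Among other genes of the same pathway no gene was called either. Their median difference had the opposite sign to that of the members in the main fit. The members' median was 0.0237 without control replicate 1, and it varied between single libraries with an SD of 0.0425 log2. A further list of 64 genes for tRNA splicing and modification included some subunits of Elongator, KEOPS and the ligase complex. All 64 were found in the table, and 63 were tested while TRMT9B fell under the filter. The mean was higher with RPPH1 in 33 of the 63 and lower in 30, with a median log2 difference of 0.0131, and 0 were called by limma or limma-voom. At an unadjusted limma p under 0.05, 1 was higher and 4 were lower, together 7.94% of the list, beside 7.97% of all tested genes. These 5 genes did not pass after adjustment. GTPBP3, which modifies wobble uridines of mitochondrial tRNA, had 29.1 ± 1.295 FPKM in controls, against 26.2 ± 0.647 FPKM in RPPH1 cells, with a log2 difference of -0.15 and a limma adjusted p of 0.465. TRPT1, a tRNA phosphotransferase, had 19.3 ± 0.850 and 17.5 ± 1.005 FPKM, and RPUSD3, a mitochondrial pseudouridine synthase, 25.1 ± 1.32 and 22.9 ± 1.16 FPKM. The KEOPS complex, which makes threonylcarbamoyladenosine, gave OSGEP with 28.7 ± 2.025 and 26.3 ± 0.622 FPKM and TPRKB with 32.55 ± 3.19 and 36.3 ± 2.295 FPKM, a lower and a higher mean within 1 complex. The limma adjusted p-values of these last 4 genes were 0.573 to 0.626. In this list, too, control replicate 1 held the highest value most often, in 25 of 63 genes.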

How the data were processed

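The deposited values were FPKM, made by the authors with 1 column per library; Trimmomatic, HISAT2, Cufflinks and GRCh38 are named in the submitters' processing notes, and tool versions and the annotation release were not given in the sources used here. Per the labels' protocols, stranded TruSeq mRNA libraries were made from total RNA; how strand was used in counting is not stated. FPKM hides depth, so whole fragment numbers were recovered from its steps. In 10909 of 10909 tested genes all values were whole within 0.01 fragments plus a relative 3e-08; for a few genes they may be divided by a common factor. Counting error covers fragments only. limma 3.58.1 in R 4.3.3 was run with a mean-variance trend and group as the only term. It was fitted to log2(FPKM + 1) of genes that reached 1 FPKM in 3 or more libraries. A run on simulated data planted changes larger than any member difference, so it says nothing of differences as small as those. An exact permutation test of 3 against 3 libraries cannot go below p = 0.1 and was not used. Each library counted as 1 sample. Pairs of replicates differed beyond sampling noise (chi-square per degree of freedom 2.21 to 8.36), which cannot tell whether they are separate cultures. Positions, overlaps and GC content came from GENCODE 29 on GRCh38, promoter windows from RefSeq. Members and lists were chosen with earlier results of these data known, and all 41 members were given; values in every library were given for complex partners, the extremes of level and genes whose groups did not overlap. Alternatives were a pseudocount of 0.1, other filters, median-of-ratios rescaling, a replicate block, omission of each library and limma-voom on recovered fragments. Some single-gene results are not reported here.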

Additional observations from a re-analysis of the deposited data

How the results depend on the processing

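None of the tested members was called under any of the 12 alternatives (smallest adjusted p 0.359, by limma without control replicate 2). The filter of 5 FPKM left 34 members in the test, and no filter left 41. Without control replicate 2, 8 of 40 members had an unadjusted limma p under 0.05, beside 10.4% of all tested genes. With another library left out, this number was 1 to 4. Counts over all genes were 0 higher and 1 lower. They became 2 higher and 6 lower with a filter of 5 FPKM, 7 and 10 with limma-voom on recovered fragments, and 0 and 0 with no filter on low values or with the replicate block. Leaving out 1 library gave 0 higher in each case and 0 to 7 lower, the 7 without control replicate 1. The median over the members ranged from -0.0507 to 0.0237 and that of base modification genes from -0.0705 to 0.0245 with a library left out, both highest without control replicate 1. Deviations of same-numbered libraries correlated at 0.0566, 0.018 and -0.104, beside -0.17 to 0.199 for the other pairs. No shared deviation was thus seen, which cannot tell whether the libraries were paired in the design. The cause of the changes between settings was not tested.

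Of 474 recomputed member values, 441 kept their sign and 33, in 23 genes that were not called, changed it, each time with a library left out. Their log2 difference ranged over CLP1 -0.0221 to 0.0994, DDX1 -0.0024 to 0.0563, DUS1L -0.1618 to 0.0171, DUS2 -0.0504 to 0.0802, DUS3L -0.2547 to 0.1075, ELAC2 -0.0793 to 0.0167, ELP3 -0.0497 to 0.0592 and NSUN2 -0.0327 to 0.0323. For the next genes it was NSUN6 -0.1335 to 0.0245, PRORP -0.0579 to 0.0213, PUS1 -0.0436 to 0.1071, PUS3 -0.0705 to 0.0315, PUS7 -0.1185 to 0.0507, RTCB -0.0019 to 0.0664, SSB -0.1143 to 0.0033 and TRMT1 -0.139 to 0.0148. For the last it was TRMT10C -0.0005 to 0.0955, TRMT11 -0.0571 to 0.0666, TRMT112 -0.0206 to 0.0562, TRMT5 -0.008 to 0.068, TRMT61A -0.0995 to 0.0878, TSEN15 -0.0484 to 0.0465 and TSEN34 -0.0712 to 0.0031. Depth limited ELAC1, ADAT3 and WDR4 most.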
